A study of Mus musculus with 16 samples.

Results

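The replication-dependent histone genes were examined in RNA-seq of the terminal ileum of mice with and without the taste receptor subunit TAS1R3. The set holds 55 of the 23299 genes in the deposited table. Members were chosen by name, as genes beginning with Hist1h, Hist2h, H2ac, H2bc, H3c or H4c, with 1 pseudogene left out. One of them, H2ac7, was named because its values were higher in *Tas1r3*-/- mice on both diets, so its genotype difference is a description and is not tested here. By family, 17 members encode H2A, 17 encode H2B, 9 encode H3 and 12 encode H4. The linker histone H1 genes carry other names and are not members.

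All mice had the C57BL/6 strain label. *Tas1r3*+/+ or *Tas1r3*-/- animals, 5 to 6 weeks old at the start, received either a normal diet (ND) with plain water or a Western diet (WD) for 10 weeks. The WD was a 60% high-fat diet with 30% sugar in the drinking water. The knockout is constitutive, so TAS1R3 was missing in every tissue, and the RNA came from whole ileum, in which fewer cells of a type and less RNA per cell cannot be told apart. The labels give 2 males and 2 females for each of the 4 groups. Among ND-fed knockouts, each column labelled female is a weighted mean of both male columns and was dropped. Among WD-fed knockouts, both female columns are related, and their average served as 1 library. This leaves 13 libraries: 4 ND-fed *Tas1r3*+/+, 2 ND-fed *Tas1r3*-/-, both male, 4 WD-fed *Tas1r3*+/+ and 3 WD-fed *Tas1r3*-/-. Sex and genotype are therefore partly confounded on the ND.

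Replication-dependent histones package newly made DNA, and their genes are switched on together in S phase. Their mRNAs are unusual because they end in a conserved stem-loop, bound by the stem-loop binding protein SLBP, and not in a poly(A) tail. Most of the genes lie in a large cluster on chromosome 13 and a smaller one on chromosome 3, often as H2A and H2B genes that face away from each other over a short shared promoter. In the ileum, dividing cells sit in the crypts and in lymphoid tissue, while the villus cells no longer divide. Some histone genes also make spliced or longer polyadenylated transcripts that persist in cells that have stopped dividing. The authors isolated mRNA with oligo(dT) beads before library preparation, so tailless histone mRNA was not what the procedure selected for.

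The stem-loop is the 3′ mark that sets these mRNAs apart, and it is shown for H2ac7 and for the most abundant gene of each family whose transcript model holds one. Capitals mark the paired stem and the 4 lower-case bases between them are the loop, with up to 5 flanking bases on each side. Sequences come from GENCODE transcripts on GRCm38, 5′ to 3′.
H2ac7: acaaaGGCTCTtttcAGAGCCatcca
Hist1h2ap: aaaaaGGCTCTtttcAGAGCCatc
H2bc8: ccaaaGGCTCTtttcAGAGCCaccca
H3c15: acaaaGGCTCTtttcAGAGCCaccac
H4c9: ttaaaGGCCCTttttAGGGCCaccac
These sites lie at chr13:23574890-23574915 (+), chr13:21833026-21833049 (-), chr13:23571838-23571863 (+), chr3:96238480-96238505 (-) and chr13:22040961-22040986 (-), each in the only annotated exon of its gene. Of the 55 members, 38 had such a stem-loop in the transcript model, in 8 sequence variants. The most frequent variant, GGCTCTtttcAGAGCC, was found in 21 genes of the H2A, H2B and H3 families, and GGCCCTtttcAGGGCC in 6 H4 genes. For 22 members the model ended within 60 bases after the stem-loop, for 16 it ran further, and for 17 no stem-loop was found in the model.

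H2ac7, which encodes a core H2A protein, is an intronless gene of 572 bases at chr13:23574381-23574952 on the plus strand. Its start lies 184 bases from that of the oppositely transcribed H2bc7. The 250 bases before the annotated start and the first 50 of the gene, from the RefSeq promoter table on GRCm38.p6 (chr13:23574131-23574430, plus strand), are shown because H2A and H2B genes of such pairs were quantified separately. Capitals mark CCAAT on either strand and TATAAA.
H2ac7: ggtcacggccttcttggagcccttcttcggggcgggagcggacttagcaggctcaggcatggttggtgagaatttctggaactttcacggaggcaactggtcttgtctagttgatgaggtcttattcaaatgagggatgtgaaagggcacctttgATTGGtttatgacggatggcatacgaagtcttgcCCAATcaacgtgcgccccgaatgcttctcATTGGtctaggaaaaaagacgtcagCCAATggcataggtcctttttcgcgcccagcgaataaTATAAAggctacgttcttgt
Hist1h2ap: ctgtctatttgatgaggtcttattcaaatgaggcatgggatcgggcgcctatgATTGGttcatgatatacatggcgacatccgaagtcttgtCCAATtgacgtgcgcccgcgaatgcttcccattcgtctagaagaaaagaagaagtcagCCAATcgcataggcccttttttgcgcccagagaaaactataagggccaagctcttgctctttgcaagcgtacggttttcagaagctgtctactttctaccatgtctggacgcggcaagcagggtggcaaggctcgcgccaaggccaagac
The window of Hist1h2ap, the most abundant H2A gene, is chr13:21833426-21833725 on the minus strand (RefSeq symbol H2ac24). Its RefSeq start lies 32 bases downstream of the start of the GENCODE model, so this window holds correspondingly more of the gene. In the H2ac7 window CCAAT occurred at positions -95, -61, -32 and -7 from the annotated start, and TATAAA at 31 after it. Among the 49 members with a promoter entry, 40 matched by symbol and 9 by coordinates, CCAAT occurred on either strand in 41, or 83.7%, against 37.4% of all 32851 promoters. It was present in all 15 H2A, all 15 H2B and all 8 H3 windows but in only 3 of 11 H4 windows. TATAAA occurred in 53.1% of the members' windows and in 13.6% of all promoters. The octamer ATTTGCAT, known from H2B promoters, occurred in 6 of 15 H2B windows and 5 of 15 H2A windows, against 1.74% of all promoters. The windows of paired genes overlap, so these counts are not independent.

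The files hold RPKM, that is reads per kilobase of transcript relative to library depth. Values below are scaled RPKM, which were summed over a gene's transcripts and divided by a factor per library (0.693 to 1.41) that aligns the libraries. The deposited RPKM summed to 817011 to 819916 in each ND library and to 542371 to 672933 in each WD library. This difference coincides with diet, so the diet comparisons rest on the scaling. The values imply 7003832 to 12384409 reads per library. In these units 1 read on a 1-kb transcript is worth an RPKM of 0.0692 to 0.139, so that members below about 1 RPKM rest on a few reads. *Tas1r3* itself was at 1.56 to 6.65 in the *Tas1r3*+/+ libraries and at most 0.00532 in the *Tas1r3*-/- libraries, as their labels say. Of the members, 48 of 55 reached 1 RPKM in 2 or more libraries and were tested among 19042 genes, among them all 17 H2A and all 17 H2B genes, but only 6 of 9 H3 and 8 of 12 H4 genes. The untested 7 were H3c2, H3c8, H3c14, H4c4, H4c6, H4c11 and H4c14.

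Levels differed widely between members. H2bc4, an H2B gene whose annotated transcript is spliced and holds no stem-loop, had the highest mean over the 13 libraries (57.1), followed by H2bc8 (27.6), Hist1h2ap (24.2), Hist1h2ao (22.1), H2ac19 (17.6) and H2ac18 (16.2). All other members were below 8, and the H3 genes were the lowest family, led by H3c15 at 2.13. The median of the gene means was 3.05 for the 22 models that end at the stem-loop, 0.872 for the 16 that run past it and 4.45 for the 17 without one. Many of these 17 models are short, such as H2ac13 (393 bases) and H2bc13 (381 bases). A stem-loop missing from the model does not show that the mRNA lacks it. RPKM also depends on the length of the model. The spread within groups was larger for the members than for most genes. Their median within-group SD was 0.689 on the log2 scale, against 0.402 over all genes tested, and it reached 0.819 for the 13 H2A genes of the chromosome 13 cluster.

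H2ac7 was low in each ND-fed *Tas1r3*+/+ library and higher in both ND-fed *Tas1r3*-/- libraries. In ND-fed *Tas1r3*+/+ mice it stood at 0.867 and 1.91 in the males and 1.02 and 1.92 in the females, with a mean of 1.43 ± 0.564 (SD, n = 4). The ND-fed *Tas1r3*-/- males had 5.75 and 8.91 (mean 7.33 ± 2.23, SD, n = 2), so that the groups did not overlap. Among WD-fed *Tas1r3*+/+ mice it was 0.432 and 1.79 in the males but 0.938 and 5.50 in the females (mean 2.17 ± 2.30, SD, n = 4). WD-fed *Tas1r3*-/- males had 11.7 and 3.56 and the female average was 6.47 (mean 7.23 ± 4.11, SD, n = 3). On the WD the groups overlapped, because female 2 of the *Tas1r3*+/+ group lay above male 2 of the *Tas1r3*-/- group. The same overlap held without scaling, with deposited RPKM of 3.81 and 3.01 in these 2 libraries.

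The log2 difference of H2ac7 between genotypes was 2.04 ± 0.62 (SE) on the ND, a 4.11-fold higher level in *Tas1r3*-/- mice, and 1.76 ± 0.55 (SE) on the WD, a 3.38-fold higher level. Both are given without a test because they chose the gene. Diet was not used in that choice. WD feeding changed H2ac7 by 0.15 ± 0.51 (SE) on the log2 scale in *Tas1r3*+/+ mice (limma, adjusted p = 0.908) and by -0.13 ± 0.66 (SE) in *Tas1r3*-/- mice (limma, adjusted p = 0.999). The spread between libraries was larger than either diet difference. On the ND, about 5.27 to 15.8 reads lay behind H2ac7 per *Tas1r3*+/+ library, against 38.2 and 50.1 for the knockouts, so counting error is large in the former.

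**Figure D1:**
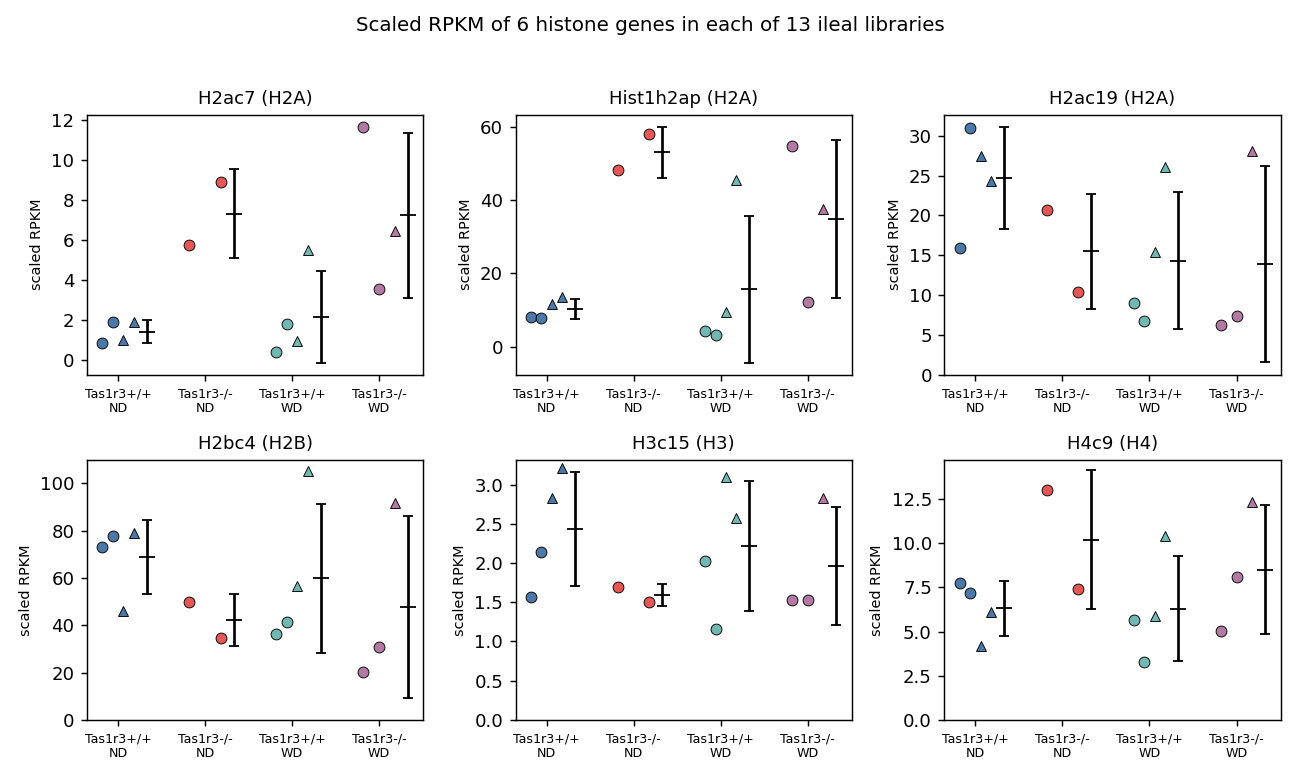
Scaled RPKM (vertical axis, linear) of 6 histone genes in each library, by genotype and diet. Circles are males, triangles females (in the WD-fed Tas1r3-/- group the average of related columns), and black bars the mean ± SD. H2ac7 and Hist1h2ap were higher in both ND-fed Tas1r3-/- libraries than in all 4 ND-fed Tas1r3+/+ libraries, while H2ac19, H2bc4, H3c15 and H4c9 overlapped between genotypes on both diets.

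H2ac7 shares much of its sequence with other H2A genes. Of its 473 windows of 100 bases, 63.6% occur unchanged in another member. It shares 55.2% with H2ac12, 50.5% with H2ac13 and 46.7% with Hist1h2an, but only 4.44% with H2ac18 and H2ac19 on chromosome 3. In 3 of 12 libraries its value was a whole number of reads, within 0.02 reads. In the other 9 it was not a whole number. For its 3 closest copies, H2ac12, H2ac13 and Hist1h2an, 12 of 12, 10 of 12 and 11 of 12 values were whole numbers. Values of H2ac7 are therefore uncertain. Because of the shared sequence, H2ac7 and its near copies are not taken as independent measurements of the genotype.

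The other H2A genes of the chromosome 13 cluster followed the same libraries as H2ac7. Hist1h2ap, a core H2A gene with 92.2% of its windows shared, had 8.01, 7.80, 11.6 and 13.6 in ND-fed *Tas1r3*+/+ mice and 48.2 and 58.05 in ND-fed *Tas1r3*-/- mice. On the WD it had 4.28, 3.27, 9.50 and 45.5 in *Tas1r3*+/+ and 54.8, 12.1 and 37.7 in *Tas1r3*-/- mice. As for H2ac7, the high values were in both ND-fed knockout males, in WD-fed knockout male 1 and the female average, and in WD-fed *Tas1r3*+/+ female 2. Its neighbour Hist1h2ao, at 9.39 ± 0.59 (SD, n = 4) and 42.9 ± 3.05 (SD, n = 2) on the ND, differed little within the ND-fed groups. It spread to 15.8 ± 18.8 (SD, n = 4) and 33.5 ± 24.6 (SD, n = 3) on the WD.

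Further core H2A genes of this cluster gave the same order. Hist1h2an was 1.84 ± 0.447 in ND-fed *Tas1r3*+/+ (SD, n = 4) and 9.57 ± 3.31 in ND-fed *Tas1r3*-/- mice (SD, n = 2). H2ac13 was 1.95 ± 0.418 and 9.46 ± 3.47, H2ac10 was 1.996 ± 0.645 and 9.47 ± 2.11, and H2ac14 was 1.96 ± 0.518 and 8.42 ± 0.562 in the same groups. H2ac11 was 2.47 ± 0.839 and 7.27 ± 0.994. H2ac15 shares only 10.5% of its windows with other members and had 1.21 ± 0.204 and 3.15 ± 0.503. H2ac6, whose model runs 2010 bases past the stem-loop, was lower, at 0.859 ± 0.295 and 1.24 ± 0.277, and overlapped between the genotypes.

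Summed over the 13 H2A genes of the cluster, scaled RPKM was 36.0, 41.4, 34.7 and 45.2 for *Tas1r3*+/+ mice on the ND, against 158 and 191 for the knockouts. On the WD the sums were 18.0, 23.5, 33.2 and 155 in *Tas1r3*+/+ and 216, 51.3 and 138 in *Tas1r3*-/- libraries. Female 2 of the WD-fed *Tas1r3*+/+ mice thus reached the level of the knockout libraries, and male 2 of the WD-fed *Tas1r3*-/- mice lay close to the ND-fed *Tas1r3*+/+ level. The summed level of all other members ran from 104 to 360 and did not follow this order. It was lowest in WD-fed *Tas1r3*-/- male 1, the library in which the H2A cluster was highest.

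Between genotypes on the ND, limma called no member at an adjusted p under 0.01 with a fold change of at least 2 (0% of all genes passed), and none had an adjusted p under 0.05. At an unadjusted p under 0.05, 11 members were higher in *Tas1r3*-/- mice and 0 were lower, beside 2.11% and 2.62% of all genes. All 11 were H2A genes of the chromosome 13 cluster. On this diet 12 of those 13 H2A genes had every *Tas1r3*-/- library above every *Tas1r3*+/+ library, beside 8.67% of all genes. Among all 48 members tested, 15 were apart in this way, 2 of them H2B genes and 1 an H3 gene, while 1 H4 gene was apart and lower. On the WD, limma again called 0 members (0.0105% of all genes), with 10 higher and 0 lower at an unadjusted p under 0.05, beside 1.64% and 1.01% of all genes, and these 10 were again H2A genes of that cluster. None of the 13 was apart between the genotypes on the WD, beside 1.55% of all genes. H2ac7 is itself among the 11, the 12 and the 10. Nothing is read from these counts, because H2ac7 was chosen on the same contrasts and the genes share sequence. On the ND the count was 1 without *Tas1r3*-/- male 2. On the WD it was 4 without *Tas1r3*+/+ male 1, *Tas1r3*+/+ female 1 or *Tas1r3*-/- male 1, and 5 without *Tas1r3*+/+ male 2 or the *Tas1r3*-/- female average.

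The median log2 difference between genotypes was 1.98 for the 13 H2A genes of the cluster on the ND and 1.48 on the WD, with all 13 above 0 on both diets. For the other 35 members tested the medians were -0.02 and -0.05, and for all genes tested 0.01 and -0.01. The cluster group holds H2ac7, chosen on these contrasts, and genes that share its sequence, so its medians are descriptions. The 2 diets use different libraries, and the Hist1h2ap difference was the highest on the ND, at 2.35 ± 0.82 (SE), and H2ac7 on the WD. For the 4 H2A members elsewhere the medians were -0.44 and 0.17. H2ac19 on chromosome 3, for example, had 24.7 ± 6.44 (SD, n = 4) in ND-fed *Tas1r3*+/+ and 15.5 ± 7.27 (SD, n = 2) in ND-fed *Tas1r3*-/- mice, with overlapping libraries.

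H2A and H2B genes that face away from each other differed within pairs. The annotation places 12 such pairs, with 175 to 301 bases between the genes. On the ND the H2A gene had the higher genotype difference in 11 of 12 pairs, with medians of 1.78 for the H2A and 0.11 for the H2B genes. On the WD it was higher in 12 of 12, with medians of 1.33 and -0.08. H2bc7, the partner of H2ac7, had 2.75 ± 0.348 (SD, n = 4) in ND-fed *Tas1r3*+/+ and 2.26 ± 0.553 (SD, n = 2) in ND-fed *Tas1r3*-/- mice. Its log2 difference was -0.25 where that of H2ac7 was 2.04. Hist1h2br, the partner of Hist1h2ap, differed by 0.68 ± 0.43 (SE) where Hist1h2ap differed by 2.35. In contrast, the partners H2ac11 and H2bc11 were closer, at 1.44 ± 0.49 and 1.05 ± 0.50 (SE). The only pair on chromosome 3, H2ac20 and H2bc21, was the exception on the ND, at -0.23 and 0.17. These values are descriptions, since the pairs include the gene chosen on these contrasts.

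**Figure D2:**
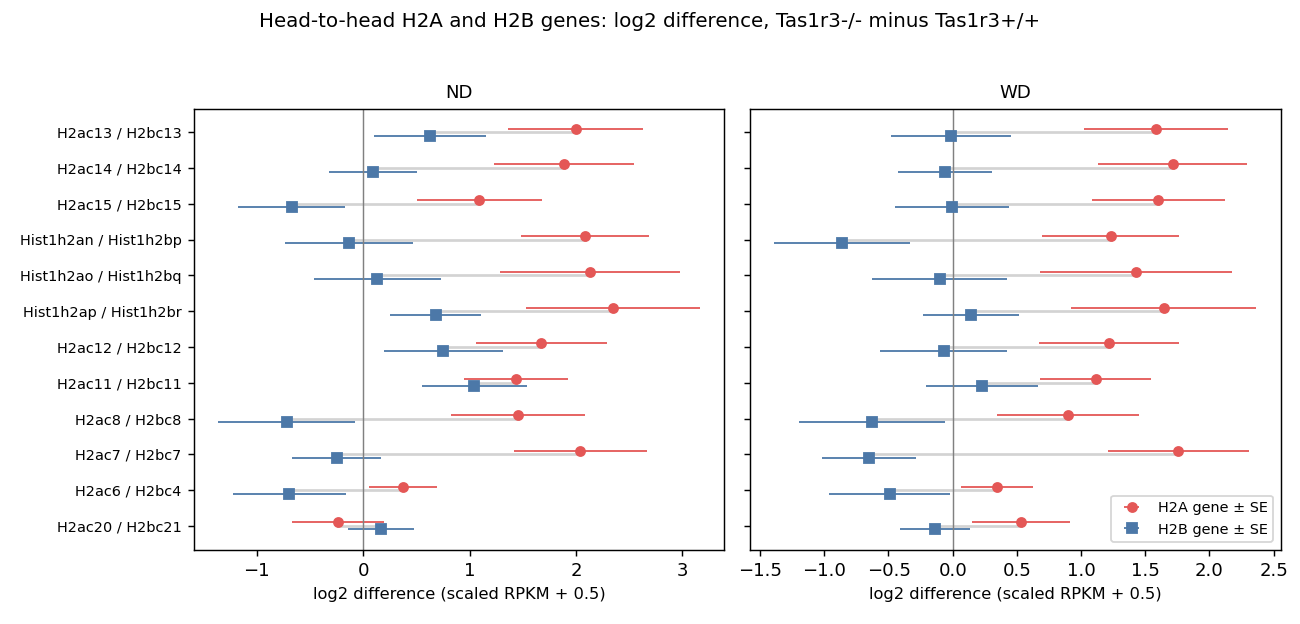
For 12 head-to-head pairs, the log2 difference between genotypes (horizontal axis, scaled RPKM + 0.5) of the H2A gene (circles) and of the H2B gene (squares), each ± SE, on the ND and on the WD. The H2A gene lies to the right of its partner in 11 of 12 pairs on the ND and in 12 of 12 on the WD.

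H2B genes gave no common direction between genotypes. H2bc4 had 73.2, 77.8, 45.9 and 79.0 in ND-fed *Tas1r3*+/+ and 49.9 and 34.6 in ND-fed *Tas1r3*-/- mice. After WD feeding it had 36.2, 41.3, 56.7 and 105 in *Tas1r3*+/+ and 20.4, 31.0 and 91.6 in *Tas1r3*-/- mice. Its libraries overlapped on both diets, and its highest values on the WD were both from females. H2bc8, an H2B gene beside H2ac8, was 36.2 ± 9.29 and 22.2 ± 9.32 on the ND (SD, n = 4 and 2), with a log2 difference of -0.72 ± 0.64 (SE, limma, adjusted p = 0.899). Hist1h2br had 5.52 ± 2.82 and 8.57 ± 1.93. Its main transcript has every window in common with another member, so its level is uncertain. H2bc1, which carries the testis form of H2B, was between 0.192 and 4.05 in every library, and its log2 difference for the WD in *Tas1r3*+/+ mice was 0.86 ± 0.51 (SE, limma, adjusted p = 0.437).

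Histone H3 and H4 genes were low and overlapped in most cases. H3c15, the most abundant H3 gene, was 2.44 ± 0.728 in ND-fed *Tas1r3*+/+ and 1.59 ± 0.135 in ND-fed *Tas1r3*-/- mice (SD, n = 4 and 2). H3c13 was 0.760 ± 0.373 and 1.69 ± 0.352 in these groups, without overlap, and its log2 difference of 0.84 ± 0.46 (SE) had an adjusted p of 0.895 in limma. H3c4 was at 0.839 ± 0.447 and 0.652 ± 0.345. Among the H4 genes, H4c9 led with 6.31 ± 1.58 and 10.2 ± 3.96, followed by H4c8 with 4.49 ± 1.17 and 3.26 ± 1.86. Hist1h4n, with 80.7% of its windows shared, had 1.84 ± 1.22 and 3.16 ± 0.219.

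WD feeding did not change any member past the threshold in either genotype. In *Tas1r3*+/+ mice limma called 0 members, beside 0.00525% of all genes, and 0 members had an unadjusted p under 0.05, beside 15.5% of all genes. The median log2 difference was -0.08, with 21 members above 0 and 27 below. The count of 0 changed with the libraries and the scaling used. At that unadjusted p, 9 members were lower on the WD in males alone, 5 without scaling and 3 without WD-fed *Tas1r3*+/+ female 2. Over all genes, 3318 of 19042, 6237 of 19042 and 3815 of 19017 had such a p in either direction in these settings. Nothing is read from these member counts. Without scaling, limma called 539 of 19042 genes for the WD in *Tas1r3*+/+ mice, against 1 with it. H2ac19 had the largest difference, -0.91 ± 0.49 (SE, limma, adjusted p = 0.389), and its libraries ran from 6.77 to 26.1 on the WD and from 15.96 to 31.1 on the ND. All 8 H4 genes tested were below 0, between -0.42 and -0.07. In *Tas1r3*-/- mice limma called 0 members (0% of all genes), 0 had an unadjusted p under 0.05 (5.49% of all genes), and the median was -0.12. In males alone 6 were lower at that level, beside 2613 of 19042 genes in either direction. For the 20 members named by the rule, the lowest two-sided exact permutation p was 0.114 in *Tas1r3*+/+ mice, where the design can give 0.0286. In *Tas1r3*-/- mice the design cannot go below 0.2. The interaction of genotype and diet had 0 calls (0% of all genes), 0 members at an unadjusted p under 0.05 (1.43% of all genes) and a median of -0.19. With SEs of this size, smaller differences were not detectable.

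A comparison of males with females, added after the values had been seen, was fitted with group and sex in 1 model. Limma called 0 members (0.042% of all genes), and 0 had an adjusted p under 0.05. At an unadjusted p under 0.05, 9 members were lower in males and 0 were higher, beside 9.98% and 9.31% of all genes. The 9 of 48 lie above the share of all genes in that direction and at about the share in both directions together. H2ac18 differed by -1.20 ± 0.29 (SE, adjusted p = 0.0668), H3c15 by -0.66 ± 0.16 (SE, adjusted p = 0.0744) and H4c8 by -1.01 ± 0.31 (SE, adjusted p = 0.113), so none passed. The median of the 48 members was -0.33. The 13 H2A genes of the chromosome 13 cluster were all below 0, with a median of -0.41. The ND-fed *Tas1r3*-/- libraries, where these genes were high, are both from males, so the difference between the sexes comes from the other groups. Sex and genotype are partly confounded on the ND. With sex as a covariate, 14 members were higher in *Tas1r3*-/- mice on the ND and 11 on the WD at that unadjusted p (limma), and 0 were lower. Over all genes, 740 and 566 of 19042 had such a p in either direction. In males alone, 11 were higher and 2 lower on the ND, and 11 and 1 on the WD, beside 1748 and 1332 of 19042 genes. H2ac7 was chosen on these contrasts, so nothing is read from these counts, and the part of sex was not tested.

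Cell cycle genes, whose expression usually accompanies that of the histones, were listed beside them. Among 23 S phase genes, which include the replication clamp gene Pcna and the ribonucleotide reductase gene Rrm1, limma called 0 in any comparison. On the ND 1 had an unadjusted p under 0.05 and was higher in *Tas1r3*-/- mice, with a median log2 difference of 0.27, and on the WD 6 were higher, with a median of 0.33. Over all genes 2.11% and 1.64% were higher at that level. Their summed level was 205 to 296 in ND-fed *Tas1r3*+/+ and 269 and 328 in ND-fed *Tas1r3*-/- libraries. WD-fed libraries had 180 to 267 and 224 to 359. The WD-fed *Tas1r3*-/- male 2, which was lowest of its group in the H2A cluster, was the highest of all libraries in S phase genes. Of 12 G2 and M phase genes 3 were higher on the ND and 1 on the WD at that level, and Top2a, the topoisomerase of dividing cells, had a log2 difference of 0.97 on the ND (adjusted p = 0.895). Between the sexes, 8 of the 12 G2 and M phase genes and 7 of the 23 S phase genes were higher in males at that level, beside 9.31% of all genes. Their medians were 0.64 and 0.36. Between genotypes, the median of the G2 and M phase genes was 0.59 on the ND, where the knockouts are all male. It was 0.38 on the WD, where both genotypes include females. The part of sex in these differences was not tested.

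Histone genes outside the name rule were examined in the same way. H2ax, the H2A variant gene that responds to DNA damage and has both a stem-loop and a polyadenylated mRNA, was 49.8 ± 3.66 and 70.1 ± 10.7 on the ND (SD, n = 4 and 2), a log2 difference of 0.48 (limma, adjusted p = 0.895). H2aw was 7.32 ± 1.27 and 7.80 ± 1.00. Of the 4 tested genes of that list, 0 were called, and H2ax alone had an unadjusted p under 0.05 between genotypes, on the ND. Among 10 replication-independent variants, whose mRNAs are polyadenylated, such as H3f3b and H2az2, 0 were called, 0 had an unadjusted p under 0.05 between genotypes on either diet, and the medians were 0.14 and 0.12. Of 5 linker histone genes in the table, a list added later, 2 were tested. H1f2 was 98.2 ± 23.2 and 79.5 ± 35.4 on the ND and H1f4 1.20 ± 0.174 and 2.28 ± 0.178 (SD, n = 4 and 2), with 0 called. On the ND 1 of the 2 was higher in *Tas1r3*-/- mice at an unadjusted p under 0.05 (limma), beside 2.11% of all genes.

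The machinery of histone mRNA was listed as well. Of 16 tested genes for histone transcription and 3′ end processing, 0 were called in any comparison. At an unadjusted p under 0.05 (limma), 1 was lower in ND-fed *Tas1r3*-/- mice, beside 2.62% of all genes. After WD feeding 1 was higher and 1 lower in *Tas1r3*+/+ mice, beside 15.5% of all genes in either direction. In *Tas1r3*-/- mice 1 was higher and 0 lower, beside 5.49%. Slbp was 10.1 ± 1.57 and 9.66 ± 1.56 on the ND and 14.9 ± 3.33 and 17.6 ± 3.82 on the WD in *Tas1r3*+/+ and *Tas1r3*-/- mice. Npat, the activator of histone transcription, was 1.25 ± 0.302 and 1.27 ± 0.0299 on the ND. The most abundant of the list were Sympk, of the cleavage complex, at 40.7 ± 1.92 and 38.2 ± 4.08, and Tut7, which adds uridines to histone mRNA for decay, at 31.1 ± 4.26 and 18.5 ± 3.71. Of 9 histone chaperones, led by Rbbp7 and Hirip3, 0 were called, with medians of 0.36 on both diets.

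RNAs that lack a poly(A) tail differed between libraries on the WD. The summed level of the 7 found of 14 listed, led by the signal recognition particle RNA genes Rn7s1 and Rn7s2, was 89.8 to 176 in ND-fed *Tas1r3*+/+ and 102 and 104 in ND-fed *Tas1r3*-/- libraries. On the WD it was 715 in *Tas1r3*+/+ female 2 and 555 in the *Tas1r3*-/- female average, and 131 to 234 in the rest. Both libraries also had high sums of the H2A cluster and of H2B genes (275 and 218). WD-fed *Tas1r3*-/- male 1, with the highest sum of the H2A cluster (216), had 200 for the tailless RNAs and the lowest H2B sum (67.4). On the ND, the tailless RNAs of the *Tas1r3*-/- libraries lay inside the *Tas1r3*+/+ range where the H2A cluster did not. The part of tailless RNA carried into the libraries in these results was not tested.

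Cell type markers varied between libraries as well. The summed level of 8 epithelial markers, led by Krt8 and Fabp6, ran from 7110 to 11707 in ND-fed *Tas1r3*+/+ and was 5239 and 8521 in ND-fed *Tas1r3*-/- libraries. After WD feeding it ran from 4865 to 18093 and from 2136 to 8064. It was highest in WD-fed *Tas1r3*+/+ female 2 and lowest in WD-fed *Tas1r3*-/- male 1. H2bc4 was highest and lowest in the same libraries. The 5 smooth muscle markers, led by Acta2 and Tagln, had their lowest sum, 949, and their highest, 4969, in these libraries in turn. The 4 crypt stem markers, led by Olfm4 and Smoc2, summed to 83.7 to 281 over all libraries. The summed level of 5 B cell and germinal centre markers, led by Cd79a, was 3.82 to 29.7 in ND-fed *Tas1r3*+/+ mice and 7.47 and 9.30 in the ND-fed knockouts, inside that range. After WD feeding it was 12.4, 9.67, 9.96 and 19.9 in *Tas1r3*+/+ mice and 23.4, 7.10 and 13.9 in knockouts. On this diet it was highest in *Tas1r3*-/- male 1, *Tas1r3*+/+ female 2 and the *Tas1r3*-/- female average, which also had the highest sums of the H2A cluster. The ND libraries went the other way. There the B cell sum was highest in *Tas1r3*+/+ female 1 (29.7), which had the lowest H2A cluster sum on that diet (34.7). The knockouts, at 7.47 and 9.30, had cluster sums of 158 and 191. Adipocyte markers, led by Adipoq and Cidec, summed to 6.22 to 90.7. Limma called 0 of these markers in any comparison, and the part of cell composition in the histone values was not tested.

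**Figure D3:**
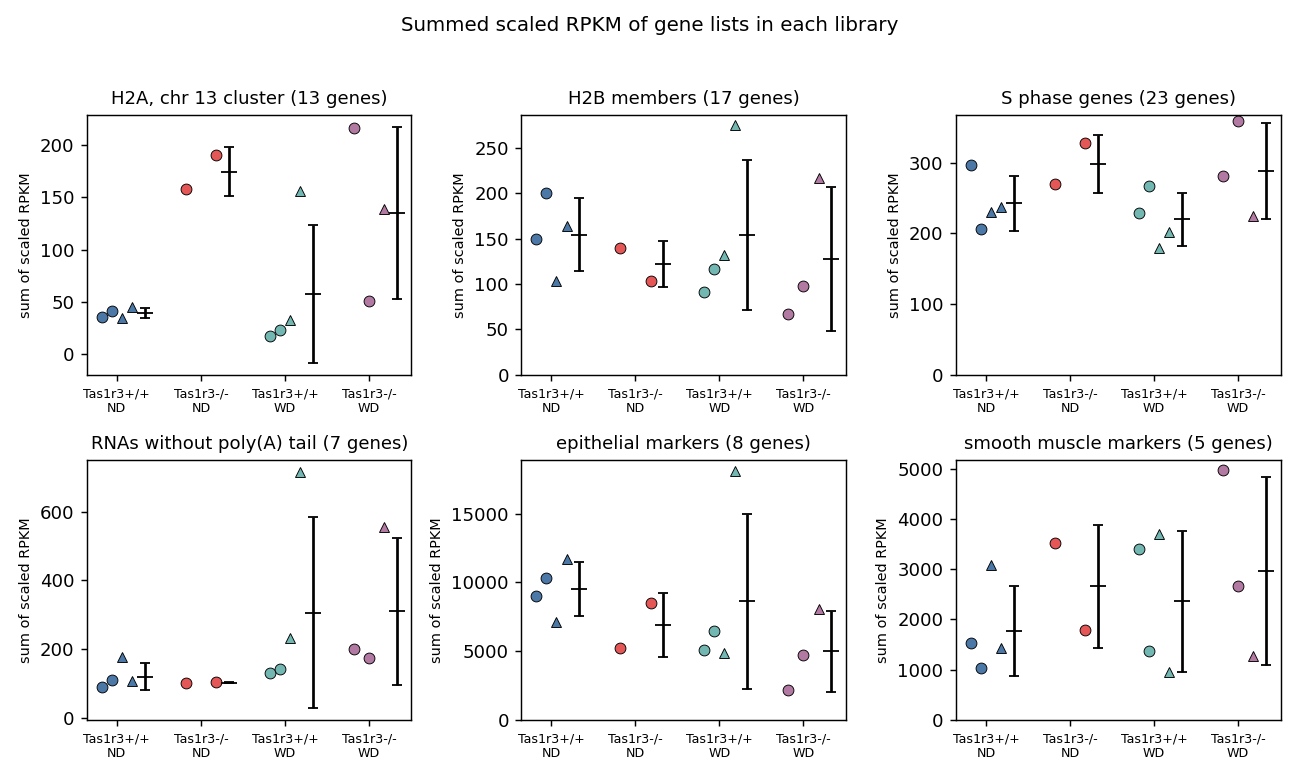
Summed scaled RPKM (vertical axes, linear) of 6 gene lists in each library, by genotype and diet, with circles for males, triangles for females and black bars for the mean ± SD. The H2A cluster is at 158 and 191 in the ND-fed Tas1r3-/- libraries against 34.7 to 45.2 in ND-fed Tas1r3+/+ libraries, while tailless RNAs and epithelial markers are highest in WD-fed Tas1r3+/+ female 2.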

How the data were processed

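Ileal RNA was poly(A)-selected and rRNA-depleted, and libraries were sequenced on the Ion Proton platform. Reads were mapped by the authors with STAR in Partek Flow to GRCm38 (mm10). The deposited unit is RPKM: the authors divided each transcript's reads by its length and a library total, so no count test was used. In some libraries another library total may have been used.

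Values of a gene's transcripts were added up. Genes reaching 1 RPKM in 2 or more of 13 libraries were kept, aligned with a TMM-type factor (30% of ratios and 5% of levels trimmed) and fitted as log2(value + 0.5) with limma 3.58.1 in R 4.3.3, with a trend and all 4 groups in 1 model. Calls needed a Benjamini-Hochberg adjusted p under 0.01 over all 19042 genes, and at least a 2-fold change. The procedure was tested on simulated data. For diet, named members were also compared by exact permutation (two-sided, scipy 1.17.1). The labels name separate mice but not litters or cages, so p-values measure the spread between these samples.

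The female columns dropped equal 0.75 and 0.625 of male 1 plus the rest of male 2, in all but 17 and 18 transcripts. Transcript models were those of GENCODE (98.2% of names matched), and promoters those of RefSeq. The members and lists were chosen with earlier results of these data known. Members named are H2ac7, the 3 most abundant per family, those called, up to 5 per contrast with the lowest unadjusted p under 0.05, and testis forms, and of other lists the 2 most abundant genes and every gene called. H2bc7, H2ac6, H2ac8, H2ac12, H2ac18, H2ac20, H2bc11, H2bc21, Slbp and Npat were named in addition, after their values were seen. Alternatives were other scalings (RLE, upper quartile, none), pseudocounts of 0.1 and 1, no filter, sex or replicate number as covariates, 2 groups alone, males alone, all 16 columns, other thresholds and each library left out. The first female column alone, a recovered second female library, the contrast of the sexes and the linker histone list were added after seeing the data. The group of 13 H2A genes of the chromosome 13 cluster and the H2A and H2B pairs were not planned at the outset. One gene of a marker list is not reported here, and the list was summed without it, a choice also made after seeing the data.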

Additional observations from a re-analysis of the deposited data

Results flagged for a closer look

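Of 50 values tested in the groups of 4 libraries, 9 had a highest or lowest library whose gap to the nearest was above the critical value of Dixon's test, and chance gives about 1 in 20. In WD-fed *Tas1r3*+/+ mice, female 2 was far above the rest for H2ac10 (6.58), H2ac11 (7.36), H2ac13 (9.88) and Hist1h2ap (45.5). The same library stood apart in the summed level of all H2A genes (210.5) and of the H2A genes of the chromosome 13 cluster (155). These genes share sequence, so the values are not independent. Female 1 of that group was high for Hist1h4n (4.26). In ND-fed *Tas1r3*+/+ mice, H2ac11 was low in female 1 (1.22), and H3c4 was high in male 1 (1.51).

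The pseudogene H2ac5-ps, left out of the set by its name, reached 14.2 in *Tas1r3*-/- libraries, in male 1 on the WD. It was 1.97 to 3.27 in ND-fed *Tas1r3*+/+ and 8.25 and 8.83 in ND-fed *Tas1r3*-/- libraries. WD-fed *Tas1r3*+/+ libraries had 1.18 to 1.40 apart from female 2 at 8.16. WD-fed *Tas1r3*-/- male 2 had 2.69 and the female average 8.68. Reads shared with the H2A genes of the cluster were not tested.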

How the results depend on the processing

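No member was called under any of the 26 alternatives chosen at the outset or the 2 added later, except by an unadjusted p under 0.05 with no minimum fold, which gave 11 members between genotypes on the ND and 10 on the WD. With each library left out, 0 members were called, the H2ac7 difference ran from 1.75 to 2.33 on the ND and from 1.38 to 2.28 on the WD, and the members' median from 0.17 to 0.42 and from 0.03 to 0.36. The median for diet ran from -0.30 to 0.14 in *Tas1r3*+/+ and from -0.38 to 0.01 in *Tas1r3*-/- mice, and that of the interaction from -0.39 to 0.12, so these 3 have no settled sign. Over all alternatives, the median of the 13 H2A genes of the chromosome 13 cluster stayed at 1.64 to 2.18 on the ND and 1.04 to 2.04 on the WD. This is a description, since the group holds H2ac7 and genes that share its sequence. In fits of 2 groups alone, Hist1h2ao had an adjusted p of 0.0139 in limma on the ND, where 3 of 19042 genes were under 0.05. Without scaling, H2ac19 had one of 0.0434 in limma for the WD in *Tas1r3*+/+ mice. In that fit 3441 of 19042 genes were under 0.05, so nothing is read from this value. With a replicate block, 0 members were called and the medians were 0.27 on the ND and 0.21 on the WD. Same-numbered libraries did not all deviate together (correlations of -0.15 to 0.568). Still, 3 of 4 WD-fed *Tas1r3*+/+ libraries correlated best with their own number. Whether the numbers pair the samples is therefore not settled, and the main fit ignores them. For the WD in *Tas1r3*+/+ mice, that fit gave 22 genes with an adjusted p under 0.05 in limma. It was 113 with sex as a covariate and 195 with the replicate block, which holds sex and number. Few reads at low levels, 2 libraries in 1 group and shared sequence limit the values of single members.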
